A study of Rattus norvegicus with 12 samples.

Results

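Tubulin genes were followed in skin-derived precursors (SKPs) of newborn rats, a dermal precursor cell that grows as floating spheres. The set named 9 isotypes, the alpha-tubulin genes Tuba1a, Tuba1b and Tuba1c and the beta-tubulin genes Tubb2a, Tubb2b, Tubb3, Tubb4b, Tubb5 and Tubb6. A gene was measured where a row of the array table carried its symbol and no other, and the row that was brightest on average over all arrays was used where there were several. This gave 7 of the 9 genes, out of 18166 genes in the whole table. Tuba1a and Tubb4b were left out, because the array annotation assigns their only row to a second tubulin gene as well. Rows were chosen by brightness averaged over all 12 arrays, which uses no group difference, while the genes themselves were picked knowing that some of them respond to trametinib. All 7 measured genes passed the filter on low signal. Tubb3 passed it only through the trametinib arrays, since its values lay under the limit of 5.83 on 7 of the 12 arrays.

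SKPs were isolated from Sprague-Dawley pups, as 3 independent isolates, and grown with FGF2, EGF and B27 supplement. Cells from dissociated secondary spheres were cultured for 24 h in 4 groups of 3 arrays. The groups received vehicle, 100 nM alprostadil (prostaglandin E1), 100 nM trimebutine maleate (a gut motility drug), or trimebutine maleate (100 nM) plus trametinib (100 nM), a drug that blocks the kinase MEK and so ERK signalling. No group received trametinib without trimebutine, so the effect of trametinib is seen here only in cells that also had trimebutine. Values are RMA log2 values of Affymetrix Rat Gene 2.0 ST arrays. A difference is the difference of 2 group means on that scale, with its standard error (SE), 95% confidence interval and Benjamini-Hochberg adjusted p from one limma fit over 13636 genes and all 12 arrays (n = 3 per group). A gene passed where the adjusted p was under 0.05. The array medians lay between 6.409 and 6.505, and the correlation of 2 arrays within a group was 0.985 to 0.991.

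Alpha- and beta-tubulin pair into a dimer that polymerises into microtubules, the filaments of the mitotic spindle, of cilia and of transport within the cell. Mammals have several genes for each, whose proteins are nearly alike over most of their length and differ most in the acidic tail that carries many of tubulin's modifications. Tubb3 is most abundant in neurons and is widely used as a neuronal marker, Tubb2a and Tubb2b are abundant in neural tissue, and Tuba1b, Tuba1c, Tubb5 and Tubb6 are found in many dividing cell types. Cells also adjust tubulin mRNA to the amount of free tubulin, through a factor that recognises the newly made protein on the ribosome.

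The upstream sequences of 5 of these genes are shown because Tubb3 and Tubb2a rose, Tuba1b and Tuba1c fell, and Tubb2b, which neighbours Tubb2a on chromosome 17, did not pass. Each is the 100 bases before the gene's annotated start in RefSeq (build GRCr8), written 5′ to 3′ on the gene's own strand, with capitals for matches on either strand to TATAA (the core of a TATA box), CCAAT or TGACGTCA (the full cyclic AMP response element).
Tubb3, chr19:68365587-68365686, plus strand: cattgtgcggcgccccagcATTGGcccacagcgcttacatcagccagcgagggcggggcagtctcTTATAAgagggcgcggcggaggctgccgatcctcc
Tubb2a, chr17:31002086-31002185, plus strand: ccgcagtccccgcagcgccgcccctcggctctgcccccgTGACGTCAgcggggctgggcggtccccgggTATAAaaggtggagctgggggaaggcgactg
Tubb2b, chr17:30952986-30953085, plus strand: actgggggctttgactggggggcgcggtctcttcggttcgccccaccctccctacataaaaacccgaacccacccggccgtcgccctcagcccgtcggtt
Tuba1c, chr7:132070884-132070983, plus strand: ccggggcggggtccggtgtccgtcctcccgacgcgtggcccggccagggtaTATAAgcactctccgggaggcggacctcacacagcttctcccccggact
Tuba1b, chr7:131972588-131972687, minus strand: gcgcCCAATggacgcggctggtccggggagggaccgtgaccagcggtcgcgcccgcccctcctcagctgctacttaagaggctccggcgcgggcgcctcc

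Matches were counted on both strands over the 250 bases before the start, and 27457 RefSeq promoters of the same length served as background. TATAA was found in Tubb3, Tubb2a and Tuba1c and in 24.1% of all promoters. In Tubb3 it matched on each strand, in a TTATAA that began 35 bases before the start, and in Tubb2a it began 31 bases before the start. CCAAT was found in Tubb3, Tubb2b, Tuba1b and Tuba1c and in 34.3% of all promoters, and only the matches of Tubb3 (81 bases before the start) and Tuba1b (96 bases before the start) fall in the stretches shown. TGACGTCA was found in Tubb2a alone of the 5, 61 bases before the start, and in 1.7% of all promoters. GGGCGG, the core of a GC box, was found in 4 of the 5, all but Tubb2b, and in 32.4% of all promoters. TGANTCA, the AP-1 motif, had no match in any of the 5 (6.36% of all promoters), and TTTGAA, a motif of cell cycle promoters, matched in Tuba1c (16% of all promoters). TATAA was thus present both in genes that rose and in one that fell.

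Adding trametinib to trimebutine changed the tubulin genes in opposite directions. Tubb3 rose, to a trametinib mean 6.62-fold above the low-signal limit, under which all 3 trimebutine arrays lay. Tubb2a rose 2.17-fold, while the alpha-tubulin genes Tuba1b and Tuba1c fell, and Tubb2b, Tubb5 and Tubb6 did not pass. In all, 4 of the 7 genes passed, 2 higher and 2 lower. The 2 higher include Tubb3, which entered the test only through its trametinib arrays, so the low-signal filter favoured its pass. Over all 13636 genes, 33.4% passed in this comparison, 16.8% higher and 16.6% lower. The members' median difference was −0.05, beside 0.03 over all genes. The arrays measure bulk RNA scaled to a common distribution, so a change in the share of cells that use a gene and a change in RNA per cell cannot be told apart.

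**Figure D1:**
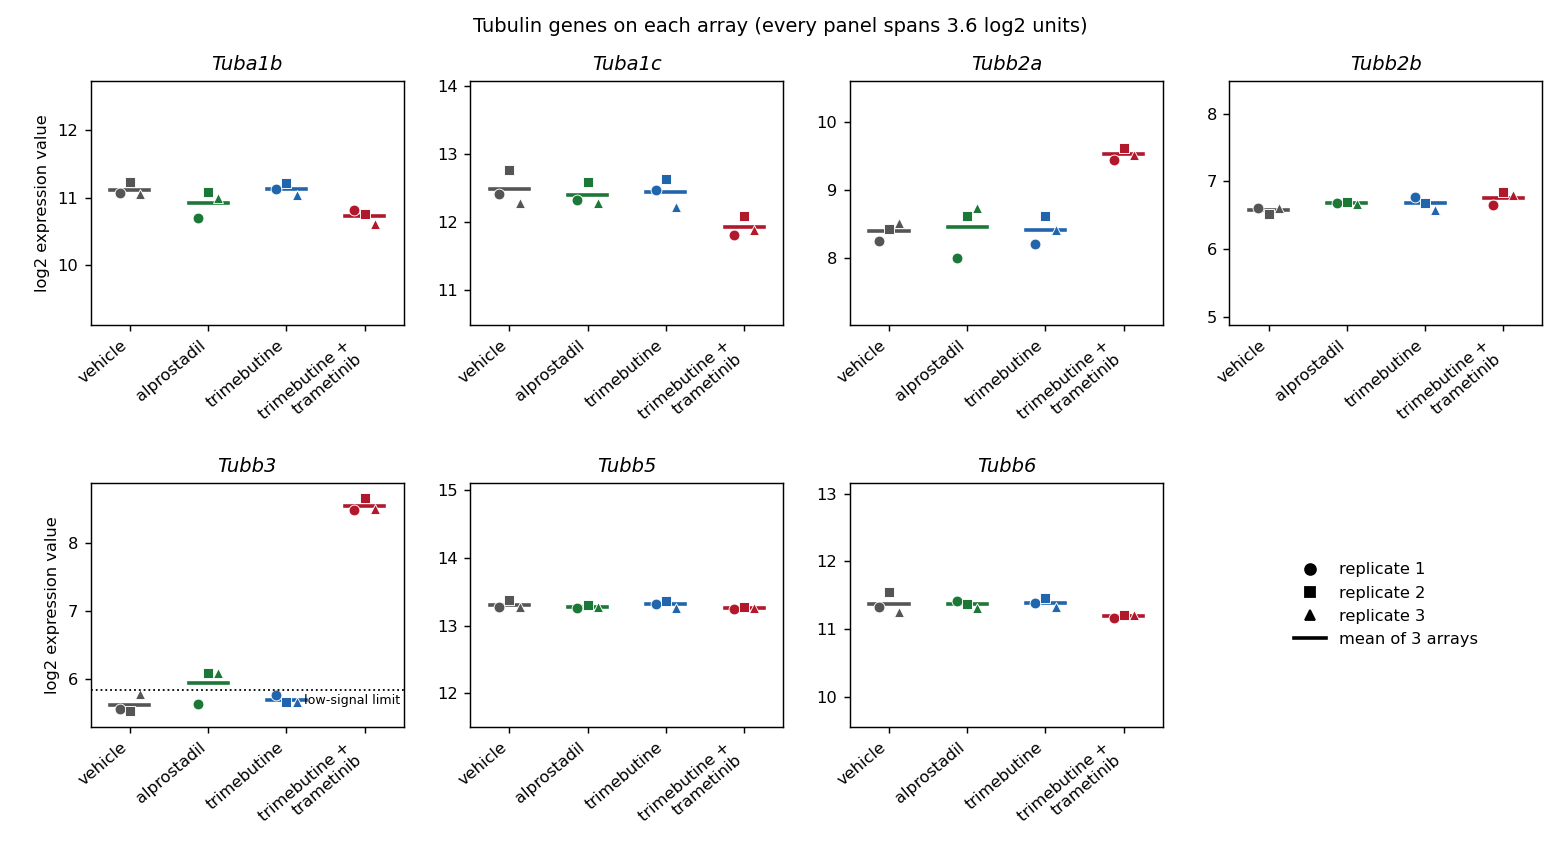
The log2 expression value of each of the 7 tubulin genes (vertical axis) on each of the 12 arrays, by treatment group, with symbols for the replicate number and a line at the mean of 3 arrays. The dotted line in the Tubb3 panel is the low-signal limit of 5.83. The Tubb3 values with trametinib lie between 8.49 and 8.67, above all other arrays, and those of Tubb5 lie between 13.25 and 13.37 in all groups.

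Tubb3, the neuronal beta-tubulin gene, read 5.56, 5.52 and 5.78 on the vehicle arrays and 5.76, 5.66 and 5.66 with trimebutine. With trimebutine and trametinib it read 8.49, 8.67 and 8.51. The vehicle and trimebutine arrays thus all lay under the low-signal limit, and the trametinib arrays lay above them without overlap. Over all genes, 24.0% had every trametinib array above every trimebutine array, and 21.8% had every one below. The trametinib mean was 2.73 above the limit, or 6.62-fold. The limit is a chosen percentile of row means and this value has no interval, so it is no strict lower bound. The difference of the measured values from trimebutine was 2.86 (SE 0.12, adjusted p = 3.59e-08), and 2.73, 3.01 and 2.85 within replicates 1, 2 and 3. Since the trimebutine arrays are under the limit, and the gene entered the test only through its high group, this difference is no estimate of the fold and its rank among genes is not given.

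Tubb2a, the other beta-tubulin gene that rose, read 8.20, 8.61 and 8.42 with trimebutine and 9.45, 9.62 and 9.52 when trametinib was added. All 3 trametinib arrays were above every trimebutine array for this gene, as in 24.0% of all genes. The rise was 1.12 (SE 0.17, interval 0.75 to 1.49, adjusted p = 0.000341), and 1.25, 1.01 and 1.10 within the replicates. The spread of Tubb2a was widest with alprostadil, from 7.999 to 8.73, and narrowest with trametinib (SD 0.09, n = 3).

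Tubb2b, which lies beside Tubb2a in the genome, read 6.77, 6.69 and 6.58 with trimebutine and 6.64, 6.84 and 6.80 with trametinib added. These values overlap, and the difference was 0.08 (SE 0.07, interval −0.07 to 0.23, adjusted p = 0.414). A second, dimmer row for Tubb2b read 5.71 to 6.06 with trimebutine and 6.01 to 6.36 with trametinib. The gene table lists Tubb2b among the older names of Tubb2a, so the rows were assigned by gene identifier and not by symbol alone. Whether the probes of these rows separate Tubb2a from Tubb2b was not tested, so their values and ratio are uncertain to that extent.

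Tubb5, a beta-tubulin gene common in dividing cells, read 13.31, 13.36 and 13.26 with trimebutine and 13.25, 13.28 and 13.26 with trametinib added. The groups overlap, and the difference was −0.05 (SE 0.05, interval −0.17 to 0.06, adjusted p = 0.505). On each array only 25 to 41 of the 36685 rows were brighter, and the brightest row of an array read 13.65 to 13.80. Whether differences are compressed at such signals was not tested.

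Tubb6, a beta-tubulin gene of non-neuronal cells, read 11.39, 11.46 and 11.33 with trimebutine and 11.17, 11.21 and 11.21 with trametinib. The trametinib arrays lay wholly below, as in 21.8% of all genes, and the difference was −0.20 (SE 0.08, adjusted p = 0.0695). With the replicate number as a term in the fit (the replicate block) it passed (adjusted p = 0.0317). This made 5 of 7 genes pass, Tubb3 among them, against 42.0% of all genes. Tubb6 also passed with each array centred on its median (−0.23, adjusted p = 0.0423) and with an intensity trend in the spread (adjusted p = 0.0428).

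Tuba1c, an alpha-tubulin gene used in many tissues, read 12.47, 12.63 and 12.22 with trimebutine and 11.80, 12.08 and 11.88 with trametinib added. Every trametinib array lay below every trimebutine array, as in 21.8% of all genes. The fall was −0.52 (SE 0.14, interval −0.83 to −0.21, adjusted p = 0.0147), to 0.698 times the level with trimebutine. The call was lost without trimebutine replicate 2 (−0.42, adjusted p = 0.063) and without trametinib replicate 1 (−0.46, adjusted p = 0.0546), while the replicate block gave adjusted p = 0.000128.

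Tuba1b, its neighbour on chromosome 7, read 11.12, 11.21 and 11.04 with trimebutine and 10.82, 10.76 and 10.61 with trametinib. The trametinib arrays again lay wholly below, as in 21.8% of all genes. Tuba1b fell by 0.40 on the log2 scale (SE 0.10, adjusted p = 0.0102), to 0.760 times the level with trimebutine. The falls within replicates were −0.31, −0.45 and −0.44 for Tuba1b and −0.67, −0.55 and −0.34 for Tuba1c. RefSeq lists 14 pseudogenes of Tuba1b, and the coding sequences of the alpha-tubulin genes are close to each other. Whether the probes of a row separate these copies was not tested, so values of Tuba1b and Tuba1c are uncertain to that extent.

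**Figure D2:**
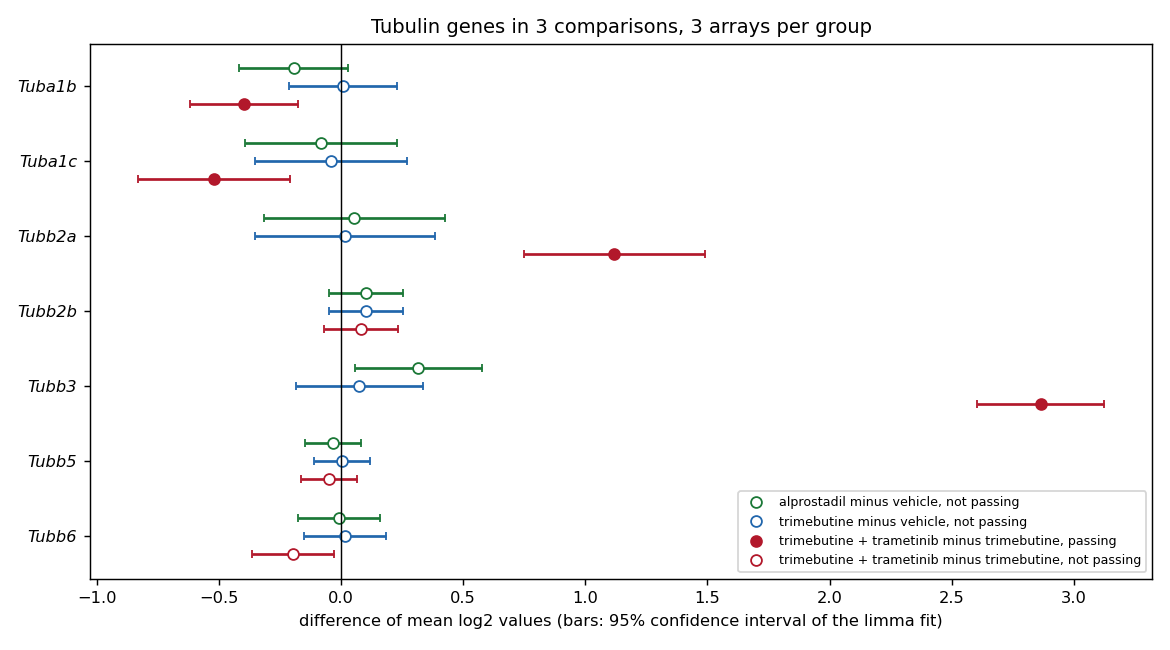
The difference of mean log2 values (horizontal axis) for each tubulin gene in 3 comparisons, with bars for the 95% confidence interval of the limma fit. Filled points passed and open points did not. The filled points are Tubb3 (2.86, from reference arrays under the low-signal limit), Tubb2a (1.12), Tuba1b (−0.40) and Tuba1c (−0.52), all from the comparison that adds trametinib.

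The unequal changes were also visible as ratios within single arrays, which a shift of a whole array leaves as they are. Relative to the mean of the vehicle arrays, the log2 ratio of Tubb3 to Tubb5 was 2.93 to 3.08 on the trametinib arrays and −0.16 to 0.51 on the 9 other arrays. The ratio of Tubb2a to its neighbour Tubb2b was 0.91 to 0.99 with trametinib and −0.50 to 0.25 on the other arrays. With Tubb3 under the limit on the vehicle arrays, ratios that involve it also start from a low signal. The ratio of Tubb3 to Tubb2a was 1.77 to 1.82, so Tubb3 moved more than Tubb2a on each trametinib array. Against Tubb5, Tuba1c was −0.62 to −0.37 and Tuba1b −0.46 to −0.24 with trametinib. On the vehicle and trimebutine arrays the ratio was −0.22 to 0.21 for Tuba1c and −0.03 to 0.05 for Tuba1b, above all trametinib arrays. For Tuba1b an alprostadil array, at −0.37, lay among the trametinib arrays. The ratio of Tuba1c to Tuba1b ran from −0.38 to −0.05 with trametinib and from −0.19 to 0.16 with vehicle or trimebutine, and these ranges overlap. These ratios are given as descriptions with no test.

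**Figure D3:**
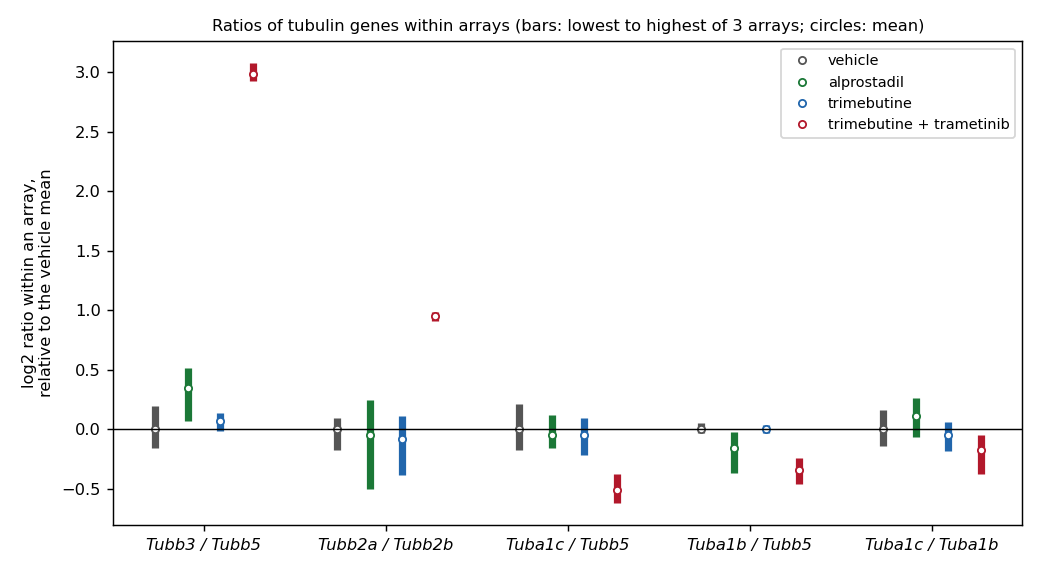
The log2 ratio of 2 tubulin genes on the same array, set to 0 at the mean of the vehicle arrays (vertical axis), for 5 pairs of genes and 4 groups. Bars run from the lowest to the highest of 3 arrays and circles mark the mean. The ratio of Tubb3 to Tubb5 averages 2.98 with trametinib, that of Tubb2a to Tubb2b 0.95, and that of Tuba1c to Tuba1b −0.17.

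Set against vehicle, the cells with both drugs gave like values, in a comparison that shares the trametinib arrays with the one above. Tubb3 lay under the limit on all 3 vehicle arrays, and its mean with both drugs was again 6.62-fold above the limit. Its difference of measured values was 2.94 (adjusted p = 2.95e-08). Tubb2a was higher by 1.14 (SE 0.17, adjusted p = 0.000293), Tuba1b lower at −0.39 (SE 0.10, adjusted p = 0.0108) and Tuba1c lower at −0.56 (SE 0.14, adjusted p = 0.00956). These were again 4 of 7 genes, 2 higher and 2 lower, where 35.0% of all genes passed, 17.5% higher and 17.5% lower. Tubb3 is again counted here, although it entered the test only through its trametinib arrays. With the replicate block 5 of the 7 passed, where 43.2% of all genes did. Tubb2b differed by 0.18 (adjusted p = 0.0598), with the 3 trametinib arrays above the 3 vehicle arrays, as in 24.9% of all genes, while 22.3% lay wholly below. It passed when its 2 rows were averaged (0.25, adjusted p = 0.0211) and without trametinib replicate 1 (0.24, adjusted p = 0.0232). Tubb6 differed by −0.18 (adjusted p = 0.0877), and passed with the replicate block (adjusted p = 0.0428), with median centring (−0.22, adjusted p = 0.0484) and without vehicle replicate 3 (−0.24, adjusted p = 0.0382). Tubb5 differed by −0.05 (interval −0.16 to 0.07).

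Alprostadil was compared with vehicle to see what a prostaglandin changes in these cells. None of the 7 tubulin genes passed by limma, where 0.389% of all genes did, and 1 of the 7, Tubb3, had an unadjusted p under 0.05, as did 6.97% of all genes. With the replicate block none passed either, where 1.88% of all genes did, and 2 of the 7 had an unadjusted p under 0.05, as did 13.2% of all genes. Tubb3 read 5.63, 6.08 and 6.09 with alprostadil, beside 5.52 to 5.78 with vehicle. Its difference was 0.32 (SE 0.12, interval 0.06 to 0.58, adjusted p = 0.574), and 0.07, 0.56 and 0.32 within the replicates. Alprostadil replicate 1 lay among the vehicle values, and 2 of the 3 alprostadil arrays lay above the low-signal limit, so this difference is one between signals at or near it.

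Tuba1b read 10.70, 11.09 and 10.99 with alprostadil, and 11.07, 11.23 and 11.05 with vehicle. The groups overlap, and the difference was −0.19 (SE 0.10, adjusted p = 0.778). Tubb2b read 6.67 to 6.69 with alprostadil, above all vehicle arrays (6.52 to 6.61), as 5.41% of all genes did, and the difference was 0.10 (adjusted p = 0.839). The other 4 genes differed by −0.08 (Tuba1c), 0.05 (Tubb2a), −0.03 (Tubb5) and −0.01 (Tubb6). Alprostadil replicate 1 was the lowest array of the study for Tubb2a (7.999) and has the highest median of all rows (6.505). The part of that array in these values was not tested beyond leaving it out, after which none of the 7 genes passed.

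Trimebutine alone was compared with vehicle. None of the 7 tubulin genes passed by limma, with or without the replicate block, and none had an unadjusted p under 0.05 in either fit. Over all genes 0% passed in either fit, and the share with an unadjusted p under 0.05 was 1.05%, or 1.85% with the block. Differences ran from −0.04 (Tuba1c) to 0.10 (Tubb2b), and Tubb3 differed by 0.07 (interval −0.19 to 0.33). The intervals were narrowest for Tubb5 (−0.11 to 0.12) and widest for Tubb2a (−0.35 to 0.39), so this fit bounds a change of Tubb2a only loosely. With the replicate block the interval was −0.22 to 0.26 for Tubb2a and −0.17 to 0.31 for Tubb3.

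Tubulin levels differed between replicate numbers in ways that recurred across groups. The sample titles give the number and do not name an isolate. For Tuba1c, replicate 2 lay above its group mean in all 4 groups, by 0.16 to 0.28. Replicate 2 was also above its group mean in all 4 groups for Tuba1b (0.03 to 0.16), Tubb5 (0.02 to 0.06) and Tubb6 (0.01 to 0.18). For Tubb2a, replicate 1 lay below its group mean in all 4 groups, at −0.45 to −0.08. The mean log2 value of 21 mitosis genes was highest in replicate 2 with vehicle (9.31, beside 9.08 and 8.98), alprostadil (9.08) and trimebutine (9.30), and lowest in replicate 2 with trametinib (6.75). The part of these differences in the tubulin values was not tested.

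Other tubulin genes and the genes that fold, modify and organise tubulin were followed through lists in the same comparison of trametinib added to trimebutine. Of 6 tested genes of other tubulins, Tuba4a (0.50, adjusted p = 0.00398), an alpha-tubulin gene, rose, and Tube1 (−0.48, adjusted p = 0.00266), the epsilon-tubulin gene of centrioles, fell. The gamma-tubulin genes Tubg1 (−0.26) and Tubg2 (0.13) did not pass, and Tubg1 fell with the replicate block (adjusted p = 0.00444). The median of the 6 was 0.10. Of 20 genes of tubulin folding, 5 fell, none rose and 15 did not pass, with a median of −0.08. For the list counts here and below, 16.8% of all genes rose and 16.6% fell in this comparison. With the replicate block 6 folding genes fell and 1 rose, where 42.0% of all genes passed. The rise was that of Tbcb (0.33, adjusted p = 0.0382, and 0.056 without the block). The largest falls were those of Cct6a (−0.35, adjusted p = 0.00147), a subunit of the CCT chaperonin that folds tubulin, and Tbcc (−0.28, adjusted p = 0.038), a cofactor in dimer assembly. The count of falls was 2 without trimebutine replicate 2 or trametinib replicate 1 and 3 without trimebutine replicate 3 or trametinib replicate 2. Tbcc did not pass without trimebutine replicate 1 or 2 or trametinib replicate 1 or 3 (adjusted p from 0.068 to 0.137). Ttc5, the factor that recognises new tubulin, differed by −0.20 (adjusted p = 0.0556), and fell with the replicate block (adjusted p = 0.0264).

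Of 20 tubulin modification genes, 7 rose and 2 fell, with a median of 0.05, where 16.8% of all genes rose and 16.6% fell. Ttl (0.63, adjusted p = 0.000328), the ligase that restores the terminal tyrosine of alpha-tubulin, and Matcap1 (0.59, adjusted p = 0.000305), a protease that removes it, had the largest rises. The falls were those of Agbl3 (−0.40, adjusted p = 0.0118), a carboxypeptidase gene, and Hdac6 (−0.24, adjusted p = 0.0454), a tubulin deacetylase gene. Hdac6 passed without trimebutine replicate 2 and in none of the other 5 runs that left out an array (adjusted p from 0.0558 to 0.169). The genes Ttl and Matcap1, whose products act in opposite directions on the same residue, thus both rose.

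Of 24 genes of microtubule dynamics, 5 rose, 6 fell and 13 did not pass, with a median of 0.003. Over all genes 16.8% rose and 16.6% fell. The largest fall was that of Stmn1 (−1.66, adjusted p = 3.78e-06), which encodes stathmin, a protein that binds free tubulin and destabilises microtubules. Fignl1 (−0.78, adjusted p = 0.000397), a gene of the microtubule-severing enzyme family, fell as well, to a trametinib mean of 5.38 that is under the low-signal limit, so the size of its fall is uncertain. The largest rises were those of Clip1 (0.58, adjusted p = 2.58e-05), a tracker of growing microtubule ends, and Map1a (0.52, adjusted p = 0.00301), a microtubule-associated protein gene. Of 14 genes of gamma-tubulin nucleation, the start point of microtubules, 8 fell and none rose, with a median of −0.22. Tubgcp2 (−0.50, adjusted p = 0.000614), of the gamma-tubulin ring complex, and Haus3 (−0.47, adjusted p = 0.00129), of the augmin complex, had the largest falls. The count of falls was 3 without trimebutine replicate 1 or 2 or trametinib replicate 2, 4 without trametinib replicate 1, 5 without trametinib replicate 3 and 9 without trimebutine replicate 3.

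All 21 tested mitosis genes fell in that comparison, with a median of −2.34, led by Top2a (−3.15) and Mki67 (−2.91), which mark dividing cells. The mean log2 value of the mitosis list was 8.91 to 9.30 with trimebutine and 6.75 to 6.93 with trametinib added. The part of this shift in the values of Tuba1b, Tuba1c and the nucleation genes was not tested. Among other cytoskeletal genes, Actg2 (0.97, adjusted p = 0.00422), a smooth muscle actin gene, rose and Actb and Acta1 did not pass. Of 10 intermediate filament and lamin genes, Lmnb1 (−1.19, adjusted p = 0.000238) and Lmnb2 (−0.38, adjusted p = 0.0197), which encode B-type lamins, fell and none rose. With the replicate block Gfap, a glial filament gene, fell too (−0.22, adjusted p = 0.0138). Its means were 6.15 with vehicle, 6.39 with trimebutine and 6.18 with both drugs. Against vehicle the difference was 0.03 (adjusted p = 0.743 with the replicate block). Lmnb2 did not pass without trimebutine replicate 2, trametinib replicate 2 or trametinib replicate 3 (adjusted p from 0.0546 to 0.0736).

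**Figure D4:**
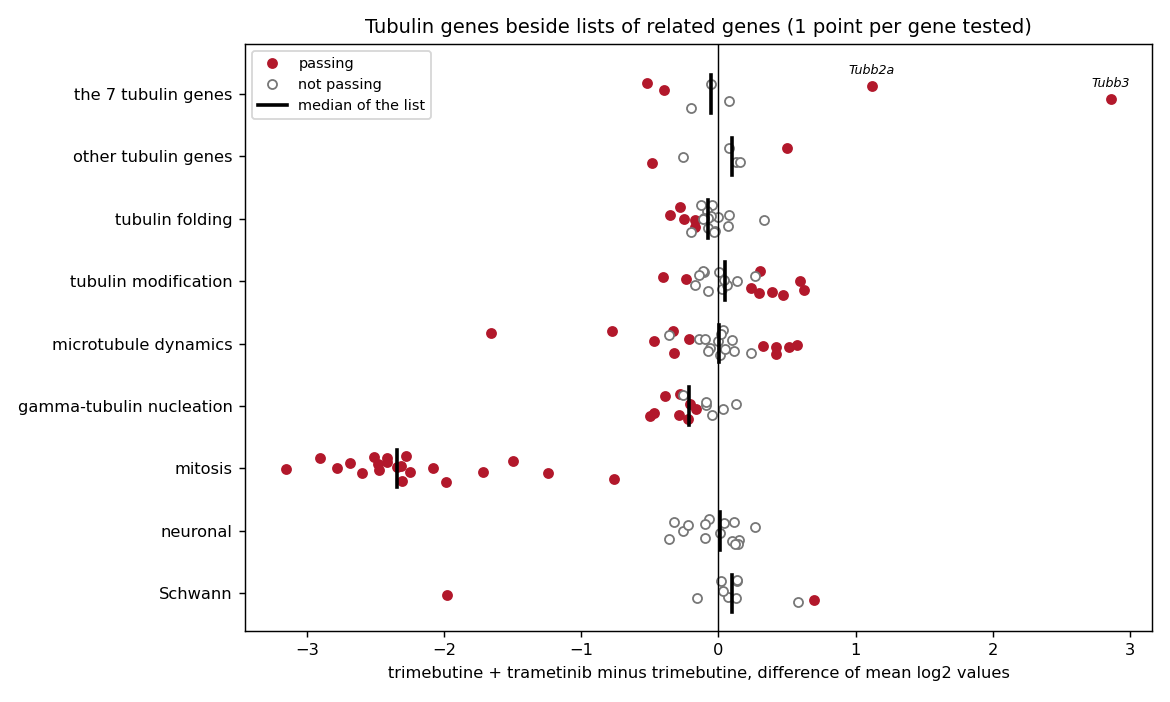
The difference of mean log2 values between trimebutine with trametinib and trimebutine (horizontal axis) for each gene tested, by list, with filled points for genes that passed and a bar at the list's median. Vertical position within a list has no meaning. Tubb2a (1.12) lies above all genes of the 8 other lists, the neuronal list spans −0.36 to 0.27, and the mitosis list lies below 0 throughout. The point of Tubb3 (2.86) starts from trimebutine arrays under the low-signal limit, so its place is no estimate of the fold.

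Tubb3 serves as a neuronal marker, so other neuronal genes were set beside it. Of 21 neuronal genes on the array, 15 were tested when trametinib was added. None passed by limma, none had an unadjusted p under 0.05 (42.3% of all genes did), and the values ran from −0.36 to 0.27 with a median of 0.02. With the replicate block 5 of the 15 had an unadjusted p under 0.05, where 49% of all genes did, and Map2 (−0.36, adjusted p = 0.00546) and Nefl (−0.32, adjusted p = 0.00723) fell. Without trimebutine replicate 2, Nsg2 fell (−0.37, adjusted p = 0.0398), and without trimebutine replicate 3, Syp rose (0.23, adjusted p = 0.0198). These 4 genes were named after their values were seen. The mean log2 value of the neuronal list was 6.25 to 6.42 on the trametinib arrays and 6.34 to 6.47 on the vehicle arrays. Dcx and Elavl4, which define young and postmitotic neurons, lay under the low-signal limit on all 12 arrays. Other genes of the list lay above it on all 12 arrays, among them Map2 (8.20 to 8.98), Uchl1 (7.54 to 8.58) and Nsg2 (7.41 to 7.97). Tubb3 thus rose in cultures where no neuronal gene of the list passed in the same direction over all 12 arrays, in either fit.

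Markers of the other cell types that such cultures could hold were also followed. All 17 measured dermal mesenchyme markers had group means above the low-signal limit in every group, and their mean log2 value was 11.58 to 11.62 with trametinib and 11.35 to 11.50 on the 9 other arrays. When trametinib was added 8 of them rose and 2 fell, where 16.8% of all genes rose and 16.6% fell. The largest changes were those of the collagen gene Col3a1 (0.97) and the growth factor receptor gene Pdgfra (−0.79). Of 10 Schwann cell markers, Gfra3 (0.70, adjusted p = 0.0145) rose and Egr2 (−1.98, adjusted p = 6.87e-05) fell when trametinib was added. With the replicate block S100b (0.58) rose as well (adjusted p = 1.45e-05, and 0.243 without the block). Egr2 is also an early response gene of growth factor signalling. Gfra3 did not pass without trimebutine replicate 3 (adjusted p = 0.0567) or trametinib replicate 2 (adjusted p = 0.0553). The list's mean was 7.21 to 7.28 with trametinib and 7.24 to 7.38 on the other arrays. The mean log2 value of the macrophage and leukocyte markers was 7.42 to 8.36 with trametinib and 7.44 to 8.60 with trimebutine. In both groups it was lowest in replicate 1 and highest in replicate 3. Of 13 tested, Cd68 fell (−1.03) and C1qa rose (0.52). With the replicate block 4 of the 13 rose and 2 fell. Keratinocyte markers (5.58 to 5.82), melanocyte markers (6.16 to 6.43) and endothelial markers (5.76 to 6.06) had low means in all groups. Epcam, Dsg3, Tyr, Tyrp1 and Mlana lay under the limit on all 12 arrays. Others lay above it on all 12, among them Krt14 (5.92 to 6.48), Cdh1 (6.11 to 6.53), Pmel (6.34 to 6.66) and Emcn (5.86 to 6.26). Among the melanocyte markers, Mitf, a transcription factor gene also used in other cell types, read 10.69 to 11.13 over all arrays, and Dct rose when trametinib was added (0.31, adjusted p = 0.013). The part of these cells in the tubulin values was not tested.

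Genes whose pattern over the 12 arrays was closest to that of Tubb3, by Pearson correlation over all tested genes other than tubulin members, were Rhob (r = 0.995), Ackr3 (r = 0.993) and Irak3 (r = 0.992). Rhob, a small GTPase gene of the actin cytoskeleton, rose by 1.93 when trametinib was added, from a mean of 10.06 to 11.98. Ackr3, a chemokine receptor gene, rose by 2.70, and Irak3, an inhibitor of interleukin receptor signalling, by 2.07. For Tuba1c, the member with the largest fall, they were C9h6orf141 (r = 0.977), the EGF family ligand gene Hbegf (r = 0.969) and Ints7 (r = 0.967), which fell by 1.65, 0.78 and 0.29. These correlations mostly reflect the step between the trametinib arrays and the others, the 12 arrays share 3 isolates, and the values are descriptions with no test.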

How the data were processed

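RNA of 12 SKP cultures was measured on Affymetrix Rat Gene 2.0 ST arrays, which use 1 colour. The deposited log2 expression values come from RMA in the oligo package, which the submitters' processing notes name as the authors' method. Versions and settings were not given in those notes. The table has 36685 rows. Of these, 18511 have 1 gene symbol in the platform annotation, 575 have several and 17599 none. Rows with several or none were not used. Symbols were updated by Entrez identifier against RefSeq's GRCr8 genes, where 18394 were found. The brightest row per symbol left 18166 genes, and 13636 with a mean at or above the 25th percentile (5.83) were tested.

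Group and replicate number came from the sample titles. One limma model (limma 3.58.1, R 4.3.3) with a mean per group was fitted to all 12 arrays, and contrasts were tested with eBayes, two-sided, with Benjamini-Hochberg adjustment over all genes. The p-values rest on the spread between these cultures only. Replicate numbers were treated as pairing the cultures. The design text names 3 independent isolates, and deviations from the group means correlated at 0.21 to 0.81 in all 18 same-numbered pairs of arrays and at −0.71 to 0.10 in the 36 others. Deviations cancel out within each group, so the values of the 36 depend on those of the 18 and are no separate support. The block with the replicate number is an alternative fit.

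The members and lists were chosen with earlier results of these data known. Brightness chose the rows and no group difference did. Besides the members, the text names up to 2 rises and 2 falls per list among genes that passed without overlap of the groups when trametinib was added, and the 3 genes closest in pattern to Tubb3 and to the member that fell most. Other genes were named after their values were seen. Alternatives were the replicate block, no low-signal filter, the mean of a gene's rows, median centring, quantile normalization, only the 2 groups compared, an intensity trend, and leaving out each array in turn. The steps were tested on simulated data. Upstream sequences are RefSeq's (GRCr8), matched by symbol for all 5 genes shown. Positions of array rows were not used.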

Additional observations from a re-analysis of the deposited data

How the results depend on the processing

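Among the 7 tubulin genes, all calls for Tubb3, Tubb2a and Tuba1b held in every alternative of both comparisons with trametinib, including the replicate block. Of 364 runs of single tubulin genes, 332 kept direction and call, 2 lost the call, 8 gained one, none that passed changed direction, and 22 of values that did not pass changed sign. The number of tubulin genes that passed was 4 in the comparison with trimebutine, with 5 under the replicate block, median centring and the intensity trend, and 3 to 4 without 1 array. Against vehicle it was 4, with 5 under the block, the mean of rows and median centring, and 4 to 5 without 1 array. For alprostadil and for trimebutine it was 0 in all runs. The counts with trametinib include Tubb3, which passed the low-signal filter only through its trametinib arrays. Over all genes, 53 passed for alprostadil, with 257 under the replicate block, 29 in the fit of only the 2 groups and 30 to 42 without 1 array.

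List counts were run under the same alternatives, a choice made after seeing the data. For tubulin folding, 3 genes passed with no low-signal filter (5 with it), and 2 to 5 without 1 array, while under the replicate block 6 fell and 1 rose. The run with no filter tests more genes and also fits the spread over them. For gamma-tubulin nucleation 8 passed, and 3 to 9 without 1 array. For neuronal genes 0 passed, 2 with the replicate block (Map2 and Nefl), 2 in the fit of only the 2 groups (Map2 and Celf4) and 0 to 1 without 1 array. For Schwann markers and for intermediate filaments 2 passed, with 3 under the replicate block in each and 1 to 2 without 1 array. For macrophage and leukocyte markers 1 rose and 1 fell, and under the block 4 rose and 2 fell. The cause of these changes in the counts was not tested. Of 351 runs of 27 named genes, 329 kept the call and 22 lost it, those of Tbcc, Hdac6, Lmnb2, Gfra3 and Ints7. The low signal of Tubb3 without trametinib and the bright signal of Tubb5 limit what their differences can show.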
